A study of Mus musculus with 12 samples.

Results

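Gria1, Gria2, Gria3, Gria4, Grin1, Grin2a, Grin2b, Cnih3, Neto1 and Shisa9 encode subunits of ionotropic glutamate receptors and proteins that attach to those receptors. These 10 genes were picked by symbol out of the 47069 gene IDs in the deposited tables, and all 10 were measured and passed the filter on low counts. They were picked with their levels in these libraries known, so their levels and fold changes are given here as a description with no p. RNA had been sequenced from 12 intracranial tumors, 3 in each of 4 groups, grown from B16 F1, a pigmented melanoma line of C57BL/6 mice, in the brain of C57BL/6 hosts. A dose of 100000 cells had been placed in the brain, and the tumors were taken at day 9. Mice with both tumors, an extracranial and an intracranial one, had been given antibodies to PD-1 and CTLA-4 together, referred to as therapy, or control IgG. Mice with the intracranial tumor only had received either the same therapy or IgG. The study asks whether therapy acts on melanoma in the brain differently when melanoma is also present elsewhere. All groups share the tumor line, the host strain and the brain tumor, and B16 F1 is a single transplanted line. The series text calls the 3 libraries of a group biological triplicates. The labels number no replicates, so numbers 1 to 3 below follow accession order and pair nothing.

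AMPA receptors are assembled from the proteins of Gria1 to Gria4 and carry the fast excitatory current at most synapses of the brain. NMDA receptors need the obligatory subunit of Grin1 together with a glutamate-binding subunit such as those of Grin2a and Grin2b, and they pass calcium when transmitter release coincides with depolarization. Cornichon proteins such as that of Cnih3, CKAMP44 from Shisa9, and the CUB-domain protein from Neto1 are auxiliary subunits: the first and second act on AMPA receptors and the third on kainate and NMDA receptors.

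The pore of an AMPA receptor is lined by a re-entrant loop, and the codon for the residue at its tip, the Q/R site, sets whether calcium passes. In Gria2 messenger RNA this glutamine codon is edited in neurons so that it reads as arginine. The reference coding sequence around the site is shown for Gria1, Gria2 and Gria4. Gria4 differs from Gria1 and Gria2 in the behavior described below, while all of them encode the same loop. Each stretch holds 180 bases, spans the junction of exons 11 and 12, and was read from the GENCODE M21 transcripts on GRCm38. Capitals mark the Q/R-site codon, which starts at base 67 of each stretch.
Gria1: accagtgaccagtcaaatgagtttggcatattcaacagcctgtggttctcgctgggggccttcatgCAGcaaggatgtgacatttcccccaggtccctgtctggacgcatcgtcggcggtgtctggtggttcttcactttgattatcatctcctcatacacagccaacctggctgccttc
Gria2: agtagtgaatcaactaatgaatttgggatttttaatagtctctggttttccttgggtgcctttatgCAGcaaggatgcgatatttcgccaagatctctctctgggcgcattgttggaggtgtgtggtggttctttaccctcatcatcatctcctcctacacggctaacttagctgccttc
Gria4: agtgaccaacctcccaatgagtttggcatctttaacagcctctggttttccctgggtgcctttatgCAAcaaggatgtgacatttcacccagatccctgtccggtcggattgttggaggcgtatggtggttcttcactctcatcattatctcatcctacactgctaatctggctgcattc
The Gria1 stretch lies at chr11:57243028-57283597 on the plus strand and the Gria2 stretch at chr3:80702569-80706979 on the minus strand, with the intron inside each span. The Gria4 stretch lies at chr9:4462017-4464205 on the minus strand. All 3 reference codons encode glutamine, written CAG in Gria1 and Gria2 and CAA in Gria4. Identity between pairs of these stretches was 76.7% for Gria2 with Gria1, 78.3% for Gria4 with Gria1 and 80.6% for Gria4 with Gria2. The tables hold counts per gene, and editing was not analysed here.

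Libraries held 18427495 to 22294182 reads assigned to genes. The B16 F1 label was met by the 8 melanocyte markers, whose summed level was 13129 to 15602 FPKM (fragments scaled by gene length and library size) under therapy and 12656 to 14700 FPKM under IgG with both tumors. With the intracranial tumor only it was 10896 to 14973 FPKM under therapy and 12645 to 14757 FPKM under IgG. A list of 10 neuron markers (Snap25, Syt1, Rbfox3 and others) summed to 122, 457 and 355 FPKM in therapy libraries of mice with both tumors and to 135, 4.56 and 198 FPKM in their IgG libraries. With the intracranial tumor only, the same list summed to 7.22, 3.45 and 3.48 FPKM under therapy and to 113, 52.5 and 175 FPKM under IgG. Replicate 2 of the both-tumor IgG group thus stood apart from the other libraries of its group and lay among the 3 therapy libraries of mice with the intracranial tumor only. Its sample name carries the suffix B2 in place of B, which no source used here explains, and the main counts and means that include it are also given without it. None of the 10 neuron markers was at 0 in a whole group, and 2 of them were at 0 in a library of the intracranial-only therapy group. Astrocyte and oligodendrocyte markers were also highest on average in the both-tumor therapy group. Their 8-gene sums were 413 to 710 FPKM and 355 to 790 FPKM there, against 129 to 319 FPKM and 88.0 to 392 FPKM under IgG. With the intracranial tumor only they were 159 to 167 FPKM and 79.5 to 122 FPKM under therapy, against 291 to 361 FPKM and 134 to 259 FPKM under IgG. T cell markers summed to 36.7 to 77.8 FPKM in therapy libraries of mice with both tumors and to 0.316 to 16.03 FPKM over the other 9 libraries. The tissue is bulk, so fewer cells of a type and less RNA per cell cannot be told apart.

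Gria1, Gria2 and Gria3, the 3 AMPA subunits that dominate forebrain synapses, were highest on average in therapy-treated mice with both tumors and close to absent in therapy-treated mice with the intracranial tumor only. Gria2 stood at 5.31, 23.1 and 15.4 FPKM in therapy libraries of mice with both tumors and at 6.03, 0.0350 and 9.06 FPKM in their IgG libraries. Intracranial-only libraries stood at 0.196, 0.0381 and 0 FPKM under therapy, which were 18 reads in all, and at 3.05, 2.04 and 6.80 FPKM under IgG. The 3 intracranial-only therapy libraries therefore lay below every library of that tumor setting under IgG, and 1 library of the both-tumor IgG group lay with them. Gria1 reached 3.95, 16.9 and 14.8 FPKM in therapy libraries of mice with both tumors, against 4.60, 0.113 and 6.46 FPKM in their IgG libraries. In mice with the intracranial tumor only it reached 0.237, 0.0461 and 0 FPKM under therapy, against 3.07, 2.30 and 3.80 FPKM under IgG. Gria3 showed the same order of groups at a lower level. It measured 2.59, 9.07 and 6.53 FPKM under therapy and 2.50, 0.0845 and 4.69 FPKM under IgG with both tumors. It measured 0.189, 0.0306 and 0.0391 FPKM under therapy and 1.33, 0.834 and 3.08 FPKM under IgG with the intracranial tumor only. In mice with both tumors, replicate 1 of the therapy group lay below replicate 3 of the IgG group for all 3 genes, so these groups overlapped. For Gria1 and Gria2 it also lay below replicate 1 of the IgG group.

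**Figure D1:**
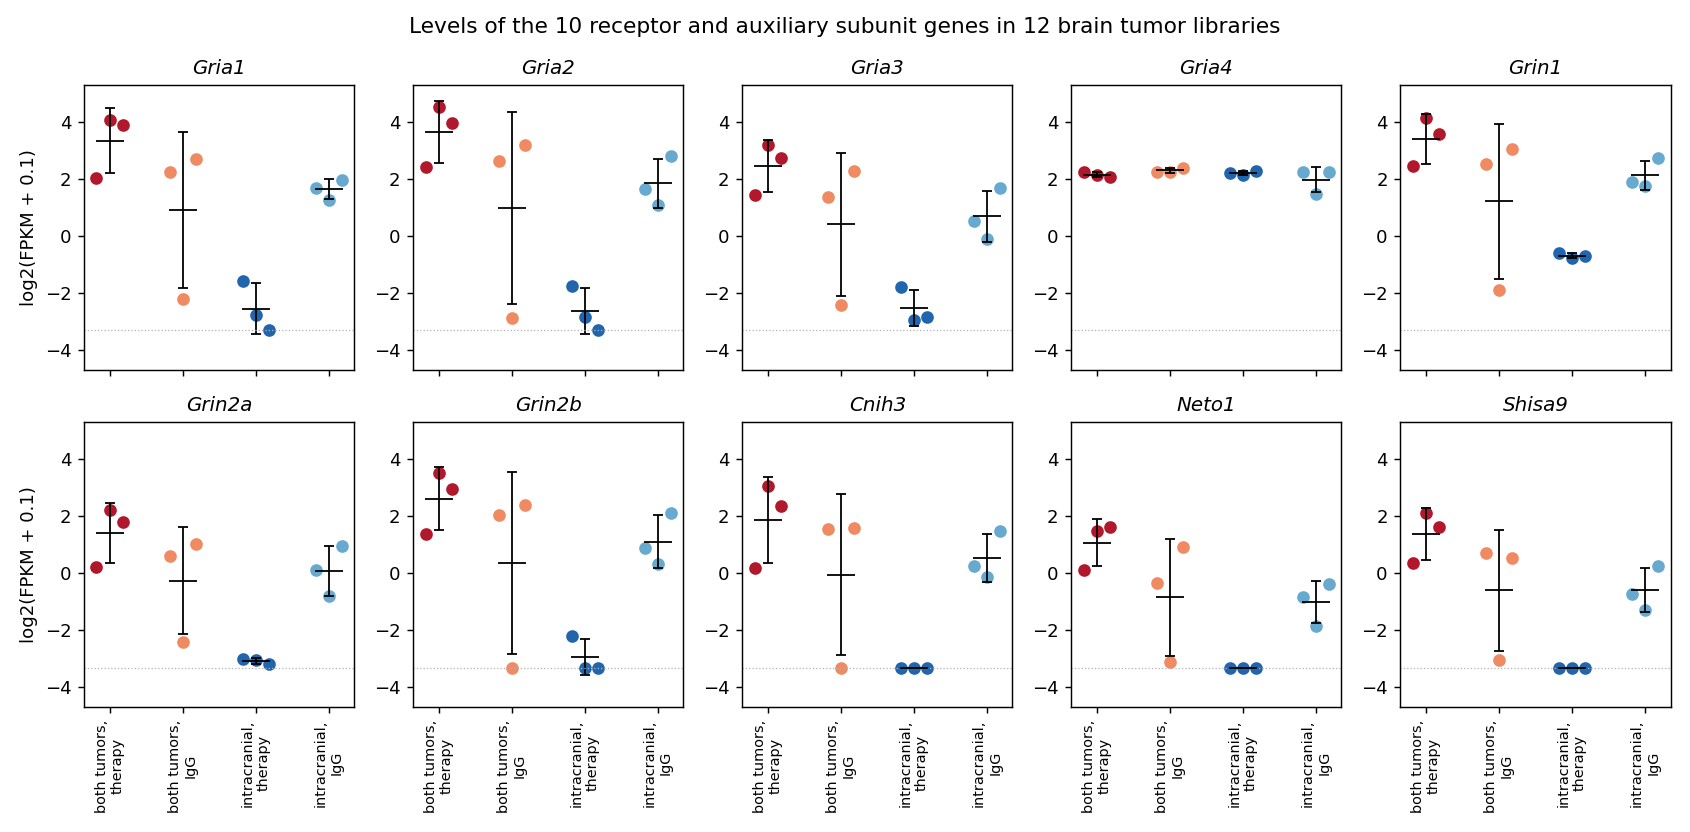
Level of each of the 10 genes as log2(FPKM + 0.1) in every library (points), with the mean and SD of the 3 libraries of a group (bar and whiskers); the dotted line marks 0 reads. For 9 genes the intracranial-only therapy libraries lie lowest together with 1 both-tumor IgG library, while Gria4 stays between 2.65 and 5.13 FPKM in all 12.

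Gria4, the AMPA subunit gene known for high levels in cerebellar glia and in interneurons, did not follow the other 9 genes. It had 4.65, 4.35 and 4.07 FPKM in therapy libraries of mice with both tumors, against 4.65, 4.67 and 5.13 FPKM in their IgG libraries. In mice with the intracranial tumor only it had 4.50, 4.25 and 4.78 FPKM under therapy, against 4.62, 2.65 and 4.58 FPKM under IgG. The lowest library, replicate 2 of the intracranial-only IgG group, still held 224 reads of Gria4, and the other 11 held 356 to 470. The SD of its log2 CPM (counts scaled to library size) over the 12 libraries was 0.24, against a median of 0.35 over all 15925 genes tested and 2.07 to 3.56 for the other members. Its Pearson correlation with the mean log2 CPM of the other 9 members was -0.18 over 12 libraries, where each other member reached 0.97 to 0.99 against the remaining 9. These coefficients describe libraries that share depth and tissue content. The 8-gene melanocyte sum also varied little between libraries, from 10896 to 15602 FPKM, and its part in the level of Gria4 was not tested.

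The makeup of AMPA subunit RNA shifted accordingly. Gria4 held 8.15% to 28.2% of the summed FPKM of Gria1 to Gria4 in therapy libraries of mice with both tumors, and 26.2%, 95.3% and 20.2% in their IgG libraries. In intracranial-only libraries it held 87.9%, 97.4% and 99.2% under therapy and 38.3%, 33.9% and 25.1% under IgG. The summed FPKM itself was 36.9 ± 18.7 under therapy and 16.01 ± 10.3 under IgG with both tumors (SD, n = 3 each), with the IgG mean at 21.6 over replicates 1 and 3 alone. It was 4.77 ± 0.38 under therapy and 12.7 ± 5.25 under IgG with the intracranial tumor only (SD, n = 3 each). Among the subunits that varied, the ratio of Gria2 to Gria1 ran from 0.826 to 1.79 where it could be formed. It was 1.04 to 1.37 in the both-tumor therapy group and 1.31 and 1.40 in replicates 1 and 3 of the both-tumor IgG group. Replicate 2 of that IgG group had 3 reads of Gria2 and 8 of Gria1, and no ratio was formed. The ratio could be formed in 1 intracranial-only therapy library, where it was 0.826 from 15 reads of each gene. It was 0.886 to 1.79 in intracranial-only IgG libraries.

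**Figure D2:**
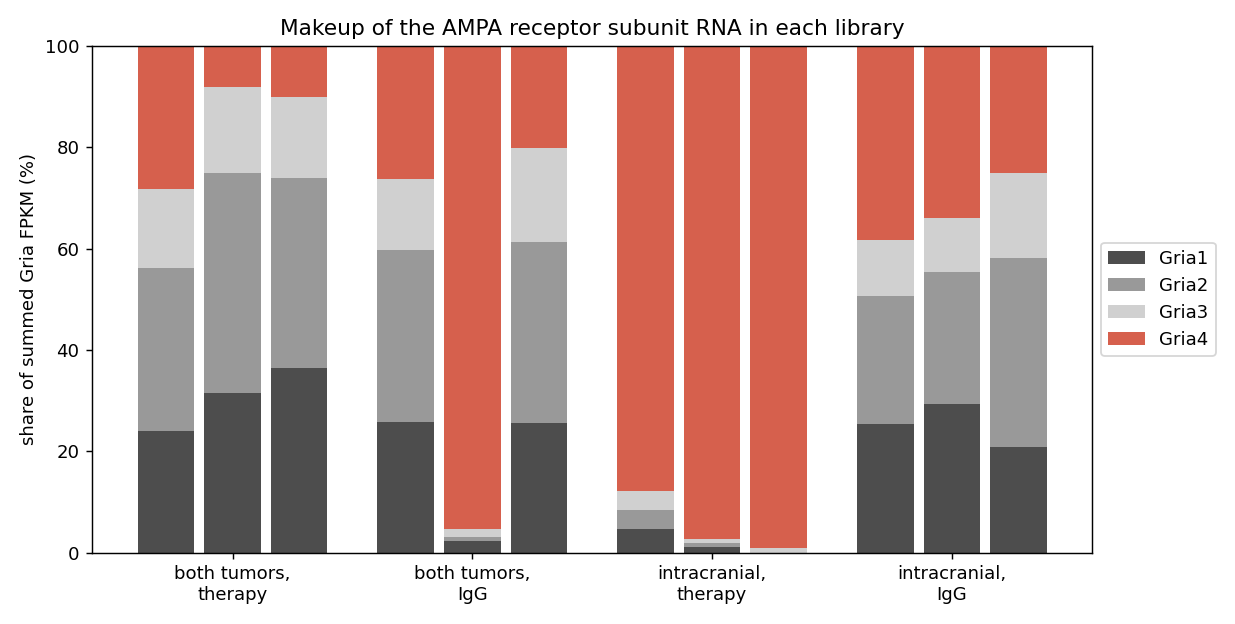
Share of the summed FPKM of Gria1 to Gria4 held by each subunit, 1 bar per library, replicates 1 to 3 from left to right in each group. Gria4 (red) takes 87.9% to 99.2% in intracranial-only therapy libraries and 95.3% in replicate 2 of the both-tumor IgG group, and 8.15% to 38.3% in the other 8 libraries.

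The NMDA receptor genes were ordered over the groups as Gria1 to Gria3 were. Grin1, the subunit every NMDA receptor needs, had 5.31, 17.7 and 11.8 FPKM in therapy libraries of mice with both tumors, against 5.62, 0.165 and 8.11 FPKM in their IgG libraries. In mice with the intracranial tumor only it had 0.553, 0.484 and 0.520 FPKM under therapy, against 3.66, 3.25 and 6.48 FPKM under IgG. Unlike the other 8 varying members it kept 27 to 34 reads in each intracranial-only therapy library, 91 in all, and was lower, at 10 reads, in replicate 2 of the both-tumor IgG group. Grin2b, the subunit that prevails early in brain development, had 2.47, 11.2 and 7.58 FPKM under therapy and 4.03, 0 and 5.06 FPKM under IgG with both tumors. Intracranial-only libraries had 0.115, 0 and 0 FPKM under therapy and 1.71, 1.14 and 4.24 FPKM under IgG. All 11 of its reads in the intracranial-only therapy group came from replicate 1. Grin2a, the subunit that increases as synapses mature, measured 1.06, 4.53 and 3.31 FPKM under therapy and 1.42, 0.0881 and 1.90 FPKM under IgG with both tumors. Intracranial-only libraries measured 0.0219, 0.0213 and 0.00907 FPKM under therapy, 5 reads in all, and 0.979, 0.464 and 1.81 FPKM under IgG. Grin2b exceeded Grin2a per length in every library with enough reads to form the ratio. No ratio was formed in replicate 2 of the both-tumor IgG group, with 9 reads of Grin2a and 0 of Grin2b. Nor was it formed in the intracranial-only therapy libraries, with 2, 2 and 1 reads of Grin2a and 11, 0 and 0 of Grin2b. The ratio of Grin2b to Grin2a was 2.36 ± 0.10 (SD, n = 3) in the both-tumor therapy group and 2.83 and 2.66 in replicates 1 and 3 of the both-tumor IgG group. It was 2.18 ± 0.38 (SD, n = 3) in the intracranial-only IgG group.

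The 3 auxiliary subunit genes had no read in any intracranial-only therapy library. Cnih3, a cornichon that slows AMPA receptor deactivation, measured 1.03, 8.13 and 5.05 FPKM in therapy libraries of mice with both tumors and 2.82, 0 and 2.92 FPKM in their IgG libraries. In intracranial-only IgG libraries it measured 1.10, 0.802 and 2.66 FPKM. Against a floor of 3 reads over the whole group, Cnih3 was at least 163-fold higher in the both-tumor therapy group than in the intracranial-only therapy group. It was at least 52.6-fold lower in the intracranial-only therapy group than under IgG in the same setting. Neto1 measured 0.979, 2.65 and 2.96 FPKM under therapy and 0.687, 0.0137 and 1.76 FPKM under IgG with both tumors, and 0.457, 0.177 and 0.661 FPKM under IgG with the intracranial tumor only. Neto1 was at least 155-fold higher in the both-tumor than in the intracranial-only therapy group, and at least 30.2-fold lower in the intracranial-only therapy group than in the intracranial-only IgG group. Shisa9 measured 1.18, 4.24 and 2.96 FPKM under therapy and 1.51, 0.0204 and 1.35 FPKM under IgG with both tumors, and 0.504, 0.307 and 1.07 FPKM under IgG with the intracranial tumor only. Its bounds were at least 131-fold higher and at least 29.5-fold lower in those 2 comparisons. These bounds cover counting error only.

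The summed level of the 9 members other than Gria4 rose and fell with the neuron markers over the libraries. It was 23.9, 97.5 and 70.4 FPKM in therapy libraries of mice with both tumors and 29.2, 0.520 and 41.3 FPKM in their IgG libraries. It was 1.31, 0.620 and 0.568 FPKM under therapy and 15.9, 11.3 and 30.6 FPKM under IgG with the intracranial tumor only. Set against the 10-gene neuron sum of the same library, this came to 19.6%, 21.4% and 19.9% under therapy and 21.6%, 11.4% and 20.8% under IgG with both tumors. It came to 18.2%, 17.99% and 16.3% under therapy and 14.0%, 21.5% and 17.5% under IgG with the intracranial tumor only. The 3 both-tumor therapy libraries lay above the 3 intracranial-only therapy libraries in this ratio, and the other pairs of groups overlapped. Its lowest value was the both-tumor IgG library that stood apart. In the intracranial-only therapy libraries Grin1 alone held 0.553, 0.484 and 0.520 FPKM of the 9-gene sum, most of it in replicates 2 and 3. The ratio of the sum there does not describe each member. Whether the neuron content of the tissue accounts for the level of any gene was not tested.

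**Figure D3:**
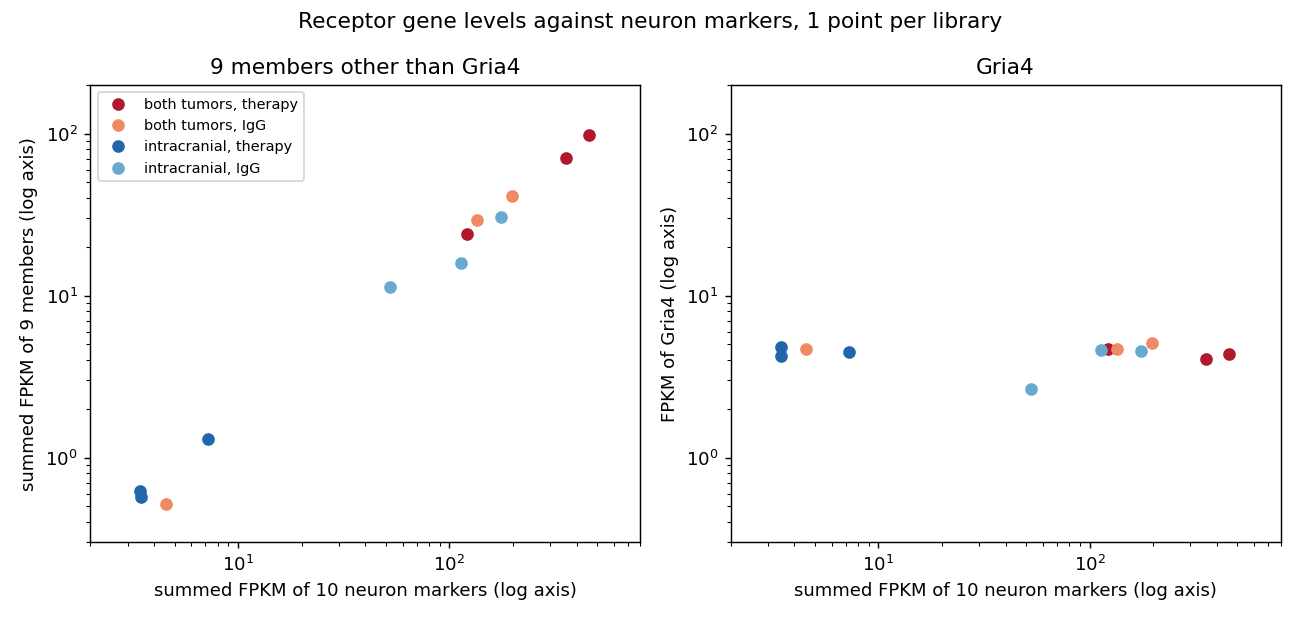
Summed FPKM of the 9 members other than Gria4 (left) and FPKM of Gria4 (right) against the summed FPKM of 10 neuron markers, both axes log scaled, 1 point per library colored by group. The 9-gene sum runs from 0.520 to 97.5 FPKM along the neuron sum, and Gria4 from 2.65 to 5.13 FPKM across the same range of neuron sums.

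Members were also set against marker reads pooled over a group, first per 1000 reads of the neuron list. How the intracranial-only therapy group compared depended on the list used. Gria2 had 70.6 reads in the both-tumor therapy group (95% exact interval 68.3 to 73.0) and 67.6 in the both-tumor IgG group (63.8 to 71.6). It had 23.9 (14.1 to 38.1) in the intracranial-only therapy group, which held 752 neuron reads in all and whose libraries ran from 0 to 41.0, and 52.4 (49.0 to 56.0) in the intracranial-only IgG group. Gria3 had 24.4 in the both-tumor therapy group, 26.8 in the both-tumor IgG group, 22.6 (13.1 to 36.4) in the intracranial-only therapy group and 19.1 in the intracranial-only IgG group. Grin1 had 39.8 in the both-tumor therapy group and 43.9 in the both-tumor IgG group. It had 121 (96.3 to 151) in the intracranial-only therapy group and 41.8 in the intracranial-only IgG group. Its intracranial-only therapy libraries ran from 82.0 to 163 and lay above the other 9 libraries, which ran from 34.1 to 65.9. Neto1 and Shisa9 had 9.15 and 7.74 in the both-tumor therapy group and 9.27 and 7.43 in the both-tumor IgG group, with 4.87 and 4.76 in the intracranial-only IgG group. Libraries of the both-tumor therapy group ran from 7.46 to 10.7 for Neto1 and from 7.203 to 8.36 for Shisa9, and those of the intracranial-only IgG group from 4.32 to 5.14 and from 3.81 to 5.31. Those of the both-tumor IgG group ran from 3.98 to 11.4 and from 3.98 to 9.68 and so overlapped with both. Cnih3, Neto1 and Shisa9 had 0 reads beside the 752 neuron reads of the intracranial-only therapy group. A list of 12 synaptic vesicle genes, 3 of them shared with the neuron list, held 68593 reads in the both-tumor therapy group and 6325 in the intracranial-only therapy group. It summed to 295 to 826 FPKM in libraries of the first group and to 76.7 to 91.0 FPKM in the second. The neuron list summed to 122 to 457 FPKM and to 3.45 to 7.22 FPKM there. The vesicle list thus fell less, which lowers counts per read of it in the intracranial-only therapy group relative to counts per neuron-list read. Its reads stayed at 1997, 2176 and 2152 in the intracranial-only therapy libraries, where the neuron list held 366, 178 and 208. Replicate 2 of the both-tumor IgG group held 1992 and 251. How much of either list came from neurons in these libraries was not tested, so ratios to the vesicle list need not be ratios to neurons. Per 1000 reads of the vesicle list the direction of Grin1 turned: it had 30.8 in the both-tumor therapy group and 28.7 in the both-tumor IgG group, against 14.4 (11.6 to 17.7) in the intracranial-only therapy group and 26.9 in the intracranial-only IgG group. Gria3, close between both therapy groups per neuron-list read, had 18.9 in the both-tumor therapy group and 2.69 (1.56 to 4.31) in the intracranial-only therapy group. Gria2 had 54.6 and 2.85 (1.69 to 4.50) in the same groups. Neto1 and Shisa9 libraries of the both-tumor therapy group still lay above those of the intracranial-only IgG group. The same held for Gria2 and Gria3 with either list. These intervals cover counting error only.

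Fitted fold changes put sizes on these differences. Counts were fitted with edgeR's quasi-likelihood test over all 15925 genes tested, and a gene was called where its Benjamini-Hochberg adjusted p over all of them was under 0.05. The SE given with a fitted value is its absolute size over the square root of the F statistic of that test. It was thus worked back from the test and is no separate measure of precision, least of all where a group had few or no reads. Both tumors against the intracranial tumor only, under therapy, called 7231 genes, 45.4% of those tested, and 24.4% in the higher direction. There 9 of 10 members were called higher, all but Gria4. For the same 9, all 3 libraries with both tumors lay above all 3 intracranial-only libraries, as did 31.4% of the genes tested, and 28.5% lay below. The members were chosen on these values, so nothing is read from counts of members called or without overlap. This holds for every comparison and refit below. The fitted log2 fold change was 7.53 ± 1.63 (SE) for Gria2, 6.95 ± 1.41 for Gria1, 6.08 ± 1.29 for Gria3 and 4.42 ± 1.01 for Grin1. It was 7.28 ± 1.22 for Grin2a and 7.50 ± 1.83 for Grin2b, and -0.12 ± 0.19 for Gria4. The median over the 10 was 7.39, or 7.15 with Cnih3, Neto1 and Shisa9 held at their bounds, against 0.03 over all genes tested. Leaving out replicate 1 of the intracranial-only therapy group, which held all Grin2b reads of that group, moved the fitted value of Grin2b to 12.5 and that of Gria1 to 8.93. Without replicate 2 of the both-tumor therapy group 4710 genes were called over all, and the 9 members were called in each of the 12 fits without a library.

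Where both tumors were present, therapy against IgG called 858 genes (5.39%; 1.24% higher and 4.14% lower) and 0 of 10 members. Fitted log2 fold changes of the 9 members other than Gria4 ran from 1.25 ± 1.29 for Grin2b to 1.70 ± 1.05 for Gria1 (SE), and Gria4 had -0.17 ± 0.19. The median over the 10 was 1.38, against 0.02 over all genes tested. Without replicate 2 of the IgG group it was 0.82, with 0 members called. Therapy libraries averaged 14.6 FPKM for Gria2, 11.9 FPKM for Gria1 and 11.6 FPKM for Grin1, against 7.55, 5.53 and 6.87 FPKM over the 2 remaining IgG libraries. Groups overlapped for all members except Gria4, whose highest therapy library lay just under the lowest IgG library, both at 4.65 FPKM. The count of 858 did not hold over fits without 1 library: it was 1271 without replicate 2 of the intracranial-only IgG group, 2064 without replicate 3 of the both-tumor IgG group, 2394 without replicate 1 of the both-tumor therapy group and 0 without any of the other 9, while no member was called in any. By the criterion of no overlap, 20.1% of genes tested lay lower and 17.9% higher.

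In mice with the intracranial tumor only, therapy against IgG called 0 genes (0%) by edgeR, with 2151 at an unadjusted p under 0.05. DESeq2 called 1030 of the 15908 genes it tested. No member was called by edgeR, and 9 were called by DESeq2. For those 9 members all 3 therapy libraries lay below all 3 IgG libraries, which 14.4% of the genes tested also did, while 8.78% lay above. Fitted log2 fold changes were -5.66 ± 1.56 (SE) for Gria2, -5.00 ± 1.34 for Gria1, -4.30 ± 1.23 for Gria3 and -3.05 ± 0.96 for Grin1, and 0.24 ± 0.19 for Gria4. The median over the 10 was -5.75, or -4.96 with the 3 genes at 0 held at their bounds, against -0.03 over all genes tested. Leaving out replicate 2 of the both-tumor IgG group, which is in neither of these groups, gave 1002 genes and 9 members called. That fit tested 16367 genes in place of 15925 and estimated the spread without this library, and which change moved the calls was not tested.

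Under IgG, members of mice with both tumors and of mice with the intracranial tumor only differed by less than the spread between libraries. There 0 genes (0%) were called by edgeR and 0 by DESeq2, with 188 and 217 at an unadjusted p under 0.05. No member was without overlap in either direction, which 1.68% of genes were as higher and 2.78% as lower. Member log2 fold changes ran from 0.02 ± 0.86 for Grin1 to 0.88 ± 1.08 for Neto1 (SE), with a median of 0.31, against 0.01 over all genes tested. Without replicate 2 of the both-tumor IgG group the median was 0.89, and without replicate 3 it was -0.35, so single libraries set its sign. The interaction, the therapy effect with both tumors over the therapy effect with the intracranial tumor only, called 3505 genes (22%), 12.1% of those tested being higher and 9.93% lower. It called 9 members higher, again all but Gria4, and nothing is read from that count because the members were chosen on these values. Their fitted values were 4.40 ± 1.29 for Grin1 to 10.1 ± 2.77 for Cnih3 (SE) on the log2 scale, and -0.40 ± 0.27 for Gria4. Without replicate 2 of the both-tumor IgG group the interaction called 2448 genes and 9 members. In 8 of the 12 fits that left out 1 library, no gene was called for the interaction. Those were the fits without replicate 2 or 3 of the intracranial-only IgG group, without any of the 3 intracranial-only therapy libraries, without replicate 1 of the both-tumor IgG group, or without replicate 2 or 3 of the both-tumor therapy group. The comparisons share groups of libraries, so their values are not independent of each other.

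Promoters were compared between Gria2, which varied with the neuron markers, and Gria4, which did not. RefSeq promoter sequences on GRCm38.p6, from 250 bases before to 50 bases after the start, matched 4 of the 10 members, Gria2, Gria4, Grin1 and Cnih3. The Gria2 promoter is chr3:80802786-80803085 and the Gria4 promoter is chr9:4796185-4796484, both on the minus strand and printed along the gene. Neither holds any of the motifs searched, so neither has capitals.
Gria2 promoter: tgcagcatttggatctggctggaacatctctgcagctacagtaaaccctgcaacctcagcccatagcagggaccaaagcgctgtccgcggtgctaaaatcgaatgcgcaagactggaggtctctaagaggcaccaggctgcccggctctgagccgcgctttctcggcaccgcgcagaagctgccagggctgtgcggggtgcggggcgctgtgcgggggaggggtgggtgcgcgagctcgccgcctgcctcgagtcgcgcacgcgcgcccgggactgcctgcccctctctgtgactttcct
Gria4 promoter: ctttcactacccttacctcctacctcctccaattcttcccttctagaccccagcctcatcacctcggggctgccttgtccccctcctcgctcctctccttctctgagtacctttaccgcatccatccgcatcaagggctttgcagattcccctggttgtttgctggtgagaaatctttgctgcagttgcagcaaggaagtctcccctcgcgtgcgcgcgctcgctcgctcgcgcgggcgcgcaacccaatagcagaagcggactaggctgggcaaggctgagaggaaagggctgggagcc
Both strands were searched for TTCAGCACC, the left part of the RE1 element bound by the neuronal gene repressor REST, for the cyclic AMP response element TGACGTCA, and for the GC box GGGCGG. The RE1 part and the cyclic AMP element were in none of the 4, and 0.371% and 1.79% of all 32851 promoters in the table held them. The GC box occurred once each in Grin1 and Cnih3 and in 35.7% of all promoters. The G and C content was 65.7% for Gria2 and 59.7% for Gria4, and 60.7% for Grin1 and 75.3% for Cnih3. Only exact matches were searched, so a variant form of any of these elements, or one outside the window, would have been missed. These matches describe letters in a fixed window and say nothing of binding.

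Other genes of the glutamate synapse were counted in 6 lists of 79 genes, of which 77 were tested. These lists were not used to choose the members, though they were drawn up with earlier results of these data known. Under therapy, 65 of the 77 changed between mice with both tumors and mice with the intracranial tumor only: 63 rose and 2 fell, against 24.4% and 21% of all genes tested. The median log2 fold change of the 77 was 4.28, against 0.03 over all genes tested. The neuron, astrocyte and oligodendrocyte sums given above moved in the same direction, by unlike amounts. Their means were 311, 570 and 632 FPKM in the both-tumor therapy group, against 4.72, 164 and 100 FPKM in the intracranial-only therapy group. The 3 that rose most by fitted value were Cbln2, a secreted bridge between presynaptic neurexins and postsynaptic delta receptors, Syndig1, a transmembrane AMPA receptor partner, and Grm3, a metabotropic receptor of neurons and astrocytes. Cbln2 averaged 1.74 ± 0.75 FPKM in the both-tumor therapy group (SD, n = 3) and had 0 reads in the intracranial-only therapy group, which was at least 78.9-fold higher (edgeR, adjusted p = 0.00483). Syndig1 averaged 2.37 ± 1.47 FPKM, against 0 reads, at least 48.6-fold higher (edgeR, adjusted p = 0.00839). Grm3 had 539 reads, against 1 read, a ratio of 514 with a 95% counting interval of 91.9 to 20345 (edgeR, adjusted p = 0.00455).

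By role, 9 of 11 other pore-forming subunits rose and none fell. Grik5, a kainate receptor subunit, averaged 21.96 ± 7.21 FPKM in the both-tumor therapy group and 4.70 ± 0.69 FPKM in the intracranial-only therapy group (SD, n = 3 each). Grik2, a kainate receptor subunit, had a log2 fold change of 0.93 ± 0.35 (SE) and an edgeR adjusted p of 0.0515, and Grin3b, a glycine-binding NMDA subunit, had -0.26 ± 0.40 and 0.625. Grik2 stood above 0 where neuron markers were lowest, at 5.90 ± 2.43 FPKM in the intracranial-only therapy group, against 5.86 ± 1.70 FPKM under IgG in that setting (SD, n = 3 each). Of 18 other auxiliary and assembly genes, 15 rose and Neto2 fell. Cacng7, a transmembrane AMPA receptor regulatory protein, averaged 15.7 ± 6.21 FPKM, against 0.581 ± 0.25 FPKM, and Cnih2, the cornichon of hippocampal principal cells, 18.8 ± 9.26 FPKM, against 1.17 ± 0.0888 FPKM, in the same 2 groups. The genes given as examples here and in the next 2 paragraphs, apart from Neto2, were chosen after their values were seen.

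Paralogs of 2 auxiliary members stood apart from them. Neto2, the paralog of Neto1, averaged 4.39 ± 0.41 FPKM in the both-tumor therapy group and 6.46 ± 0.74 FPKM in the intracranial-only therapy group (SD, n = 3 each), with a log2 fold change of -0.62 ± 0.17 (SE; edgeR, adjusted p = 0.0128). It averaged 5.99 ± 0.16 FPKM in the both-tumor IgG group and 5.52 ± 1.20 FPKM in the intracranial-only IgG group. Cnih1, the broadly expressed paralog of Cnih3, averaged 57.7 ± 8.17 FPKM, against 72.6 ± 9.30 FPKM, with a log2 fold change of -0.40 ± 0.16 and an edgeR adjusted p of 0.0558. Both genes were thus present in libraries where Neto1 and Cnih3 had no read.

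Of 20 scaffold and kinase genes, 17 rose. Camk2a, the kinase most abundant in forebrain spines, averaged 115 ± 74.2 FPKM in the both-tumor therapy group, against 0.763 ± 0.64 FPKM in the intracranial-only therapy group, and Dlg4, which encodes PSD-95, 123 ± 41.7 FPKM, against 19.7 ± 5.43 FPKM. Homer1 averaged 23.3 ± 4.87 FPKM, against 21.4 ± 9.46 FPKM, with an edgeR adjusted p of 0.891. All 7 metabotropic receptors rose, as did 8 of the 9 synaptic organizers tested. Among 12 genes of glutamate supply and uptake 7 rose. They included Slc17a7, the vesicular transporter of cortical neurons, at 74.97 ± 43.8 FPKM, against 0.374 ± 0.19 FPKM, and the astrocyte uptake transporters Slc1a2, at 194 ± 78.5 FPKM, against 0.776 ± 0.51 FPKM, and Slc1a3, at 99.2 ± 54.7 FPKM, against 0.613 ± 0.46 FPKM.

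**Figure D4:**
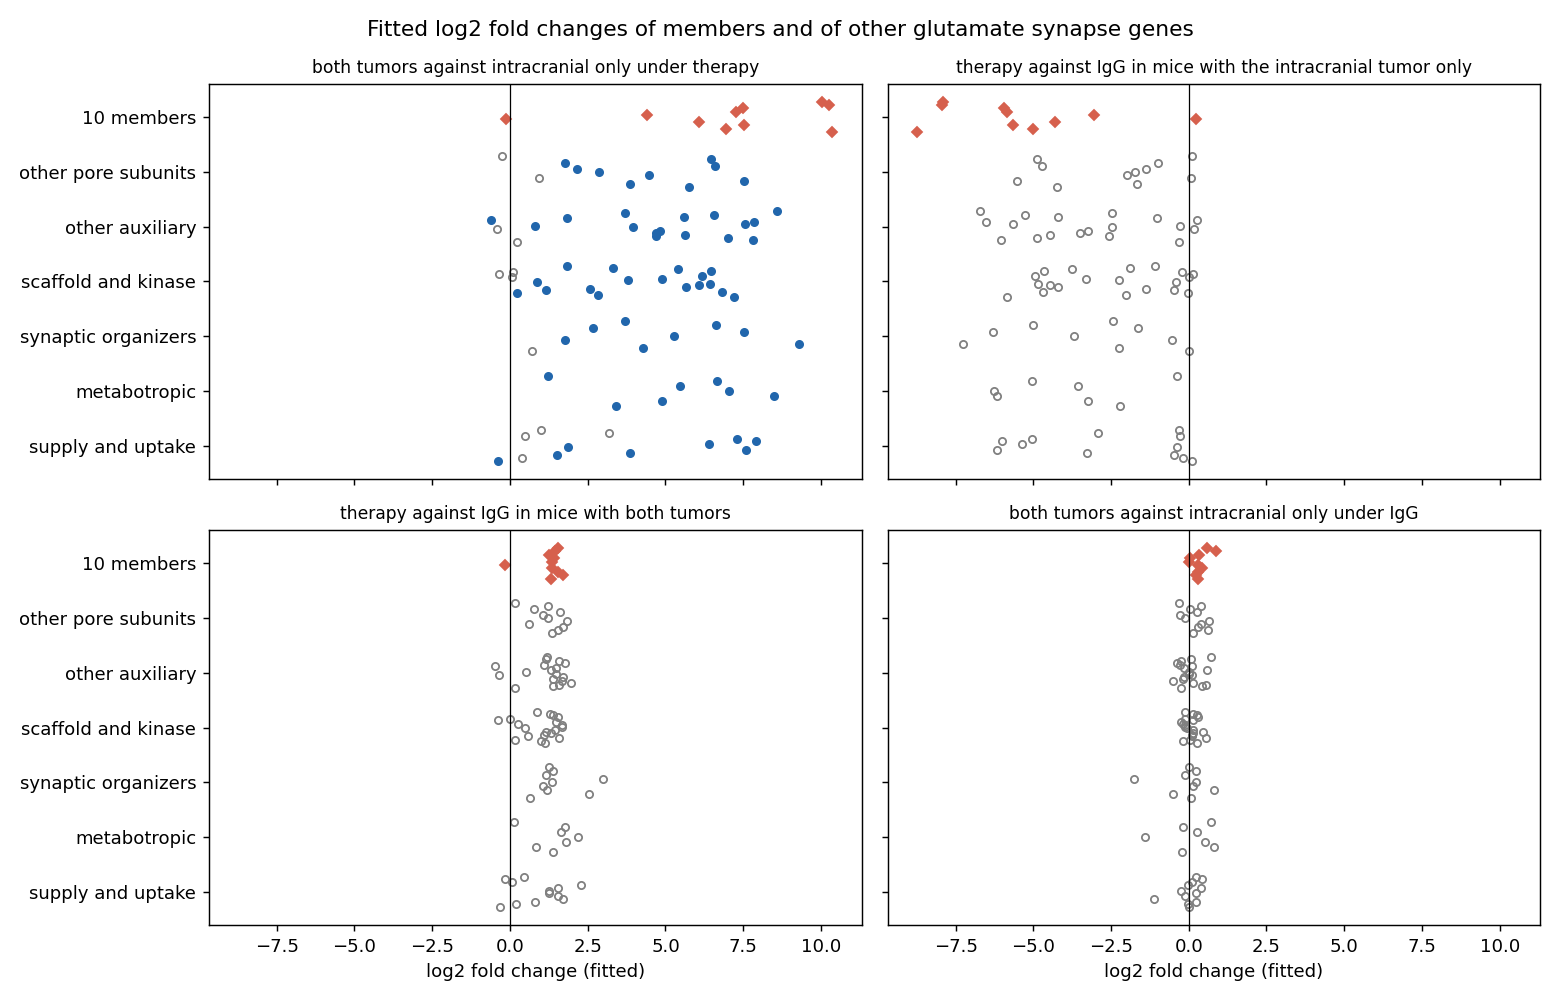
Fitted log2 fold change of the 10 members (diamonds, no test shown) and of the 77 other glutamate synapse genes by list (circles, filled where the edgeR adjusted p was under 0.05), 1 panel per comparison. Filled circles occur in the comparison of both tumors with intracranial only under therapy, where 63 of 77 are higher and 2 lower, and in none of the other 3 panels.

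In the other 3 comparisons edgeR called 0 of the 77. The median log2 fold change over the 77 was 1.27 for therapy against IgG with both tumors, -2.56 for therapy against IgG with the intracranial tumor only (-2.49 with genes at 0 held at their bounds) and 0.10 for both tumors against intracranial only under IgG. DESeq2 called 8, 40 and 0 of them. Over all genes, DESeq2 called 3323 of 14364, 1030 of 15908 and 0 of 15908 in the same comparisons. Without replicate 2 of the both-tumor IgG group, edgeR called 42 for therapy against IgG with the intracranial tumor only. Over all genes that fit called 1002 of 16367. The interaction called 53 of the 77, 52 higher and 1 lower, against 22% of all genes tested, and 48 without replicate 2 of the both-tumor IgG group, while its 8 fits without a library that were named above called 0. Nptx2, a pentraxin that clusters AMPA receptors and is made in response to activity, had the largest fitted value, 9.29 ± 1.49 (SE; edgeR, adjusted p = 0.0321). It averaged 8.14 ± 4.73 FPKM under therapy and 1.04 ± 0.97 FPKM under IgG with both tumors, and 0.0411 ± 0.0232 FPKM under therapy and 3.45 ± 1.29 FPKM under IgG with the intracranial tumor only (SD, n = 3 each). Its both-tumor IgG mean was 1.54 FPKM without replicate 2. Grm4, a presynaptic metabotropic receptor, averaged 1.41 ± 0.38 FPKM under therapy and 0.313 ± 0.26 FPKM under IgG with both tumors, where the IgG mean was 0.459 FPKM without replicate 2. It had 1 read under therapy and averaged 0.810 ± 0.18 FPKM under IgG with the intracranial tumor only.

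The genes most like the members over the 12 libraries were named by Pearson correlation of log2 CPM with the members' mean. They included Opcml, Map9, Nat8l, Pcsk2, Phf24, Celf4, Phyhip and Scg5, with r from 0.997 to 0.999. Celf4 is also one of the 10 neuron markers. The least alike were Fut10, Cd109, Plp2, Snd1 and Prpf31, with r from -0.95 to -0.94. Leaving out the 2 libraries farthest from the median of the members' mean, replicates 2 and 3 of the intracranial-only therapy group, kept r at 0.995 to 0.999 for the first set and at -0.93 to -0.91 for the second. The libraries share tissue content and the members' mean has clusters of low and high libraries, so these values describe likeness only.

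Counting could blur a few of the members. Grin1 shares 1307 exonic bases with the antisense transcript Grin1os, which had 21 and 13 reads under therapy and IgG with both tumors and 1 and 17 reads under therapy and IgG with the intracranial tumor only. No source used here gives the strand setting of the count, so reads of the pair cannot be told apart where they overlap. Of all 50-base windows of its transcripts, Grin2a shared 11.6% with other annotated genes and Grin1 8.24%, Neto1 2.04%, and Gria1, Cnih3 and Shisa9 0%. Gria4 shared 0.335%, with 436 other genes, including 8 windows with Gria2 and 4 with Gria3. Only exact matches of windows were counted, and exchange of reads between genes was not tested.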

How the data were processed

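RNA-seq of 12 intracranial tumors was deposited as 2 tables. One holds raw read counts per Ensembl gene. Per the submitters' processing notes, the authors used TopHat2 2.0.12, Bowtie2 2.2.3 and HTSeq 0.6.1 with the builds GRCm38 and mm10. No source used here gives the annotation release or strand setting. The other holds FPKM values made by the authors. Each deposited FPKM was the count over a fixed gene length and the library total, within a relative tolerance of 1e-06, in all 16062 genes that had reads in all 12 libraries. Of 47069 gene IDs, 46488 matched a symbol.

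Counts of all 12 libraries in 4 groups were fitted in edgeR 4.0.16 (R 4.3.3; TMM factors, filterByExpr with a minimum count of 10 and a minimum total of 15, quasi-likelihood test, Benjamini-Hochberg adjustment over 15925 genes), after tests on simulated data. Alternatives were RLE size factors, no filter, DESeq2 1.42.0 and leaving out each library. Log2 CPM used a prior count of 2. A gene with 0 reads in a group was set against 3 reads over the group, and counting intervals are exact at 95%. Levels between genes were compared only in FPKM. Depth was 18427495 to 22294182 counts per library.

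The members and lists were chosen with earlier results of these data known. Named pathway genes were, in each comparison, up to 3 called in each direction with the largest fold change; the 10 genes most like the members' mean and the 5 least like it were named by Pearson r. Some genes these rules picked, and 1 subunit's sequence, are not reported here. The labels give no batch or pairing. With 3 libraries a group, precision rests mainly on their spread.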

Additional observations from a re-analysis of the deposited data

Results flagged for a closer look

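The test of the interaction called 53 of the 77 glutamate synapse genes tested outside the 10 members, which is why they are listed here. Over all genes tested it called 22%, and fits without 1 library called 0 to 59 of the listed genes. For a gene called, the fitted effect of therapy differed between mice with both tumors and mice with the intracranial tumor only. The log2 difference between these therapy effects was 9.29 for Nptx2, 8.47 for Cbln2 and 8.45 for Grm4, and -0.74 for Neto2 (edgeR, adjusted p = 0.0321, 0.0326, 0.0321 and 0.0472). The first 3 had 6, 0 and 1 reads in the intracranial-only therapy group, so their fitted sizes depend on the prior count and are no bounds. In mice with both tumors Nptx2 and Neto2 had log2 fold changes of 2.99 ± 0.90 and -0.47 ± 0.17 for therapy against IgG, and with the intracranial tumor only -6.30 ± 1.18 and 0.27 ± 0.17 (SE). Of 15 alternatives to the fit, 10 lost the call of Neto2 and 8 that of Nptx2, Cbln2 and Grm4 each, with no change of direction.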

How the results depend on the processing

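With RLE size factors in place of TMM, and likewise without the filter, 0 genes were called for therapy against IgG with both tumors, against 858, while DESeq2 called 3323 genes and 8 pathway genes. For therapy against IgG with the intracranial tumor only, DESeq2 called 1030 genes and 40 pathway genes, against 0 and 0. Leaving out each library in turn gave 0 to 2394 genes and 0 to 6 pathway genes for therapy with both tumors, 0 to 1002 and 0 to 42 for therapy with the intracranial tumor only, 4710 to 8128 and 59 to 68 for both tumors under therapy, and 0 to 4367 and 0 to 59 for the interaction. The cause was not tested. Under IgG every alternative gave 0. Of 135 refitted fold changes of named pathway genes 34 lost the call, all for the interaction, and none changed direction. Of 750 refitted member fold changes 6 moved by more than the spread, all for Gria1 and Grin2b without replicate 1 of the intracranial-only therapy group. With the synaptic vesicle list in place of the neuron list, 21 of 27 member ratios moved by more than the spread between libraries and 7 changed sign. One was Grin1 in the both-tumor over the intracranial-only therapy group, at a log2 ratio of 1.10, against -1.61 with the neuron list. No paired analysis was possible because the labels give no replicate numbers. Genes with under 10 reads in a group are limited by depth.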
